A study of Mus musculus with 6 samples.

Results

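The 10 genes described here encode the main chaperones and disulfide isomerases of the endoplasmic reticulum (ER): Hspa5, Hsp90b1, Calr, Canx, P4hb, Pdia3, Pdia4, Pdia6, Hyou1 and Sdf2l1. They are 10 of the 55341 genes in the count table and were found by their symbols. The list was chosen by function, but also on measured values, since earlier results of the comparison of the genotypes in these same libraries were known when it was drawn up. Their differences between the genotypes are therefore given as a description, with no p-value for a single member, and the counts of members past a threshold are printed beside those of all genes and support nothing. All 10 passed the filter on low counts, as did 16017 genes in all. RNA came from the aortas of 3 miRNA-26b-/- mice (libraries M2626, M2627 and M2628) and 3 miRNA-26b+/+ mice (M2629, M2630 and M2631, labelled naive), all 8 weeks old on chow diet, with C57BL/6NCrl as the labelled strain in both groups. In the miRNA-26b-/- mice 160 bp holding the microRNA were deleted from an intron of Ctdsp1, by recombination of loxP sites with tamoxifen-induced CreERT2, which was later removed by breeding. The targeted embryonic stem cells came from another mouse strain. The paper describes the lines first established as of mixed background, of that strain and C57BL/6, and its methods place all mice on C57BL/6. None of the 10 genes lies on chromosome 1, which holds the targeted locus. Whether DNA of the stem cell strain remained on other chromosomes was not tested.

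Secreted and membrane proteins fold in the ER, where BiP, the product of Hspa5, binds exposed hydrophobic stretches in cycles driven by ATP. Glycoproteins are in addition held by the lectins calnexin and calreticulin, and protein disulfide isomerases form and rearrange disulfide bonds. When unfolded proteins accumulate, the sensors ATF6, IRE1 and PERK start the unfolded protein response, which raises transcription of these chaperones. In the aorta, smooth muscle cells and fibroblasts secrete collagens and elastic fibre proteins that pass through the same compartment.

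Total counts per library were between 25706728 and 33345037. The targeted Mir26b gene received 20 counts in M2630 and 0 in every other library of either genotype, too few to check the labels. The labels name endothelial cells, whereas the methods of the study name the aortic arch and the thoracic aorta. Summed over 8 endothelial markers the level was between 428 and 1694 CPM (counts scaled to library size), against 31340 to 42224 CPM over 7 smooth muscle markers, so that markers of the labelled cell type were far below those of the vessel wall around it. Endothelial counts were low in M2626 with 428 CPM and in M2627 with 474 CPM. M2627 stood apart further. It had the highest summed markers of adipocytes (923 CPM, against 220 to 676 CPM in the others), sympathetic neurons (339 against 57.3 to 144 CPM) and skeletal muscle (85.2 against 2.18 to 26.4 CPM). Cardiac muscle markers were also highest in M2627, at 252 CPM. For these the miRNA-26b+/+ library M2630 was close, at 221 CPM, and the others were at 9.04 to 48.9 CPM. Of these lists, Th, Dbh and Tubb3 of the neurons, 5 of the 6 skeletal muscle genes and 4 of the 5 cardiac genes were at 0 in at least 1 library. M2628 stood apart in other lists. It was the highest library for markers of endothelium (1694 CPM), fibroblasts (20828 CPM) and macrophages (477 CPM), and the lowest for smooth muscle (31340 CPM). The differences of the members are given below with and without M2627, which was the lowest library for every member.

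Of the 9 members with a promoter in the RefSeq table (250 bases before to 50 bases after the start, GRCm38.p6), 5 held the ER stress response element (ERSE), the sequence through which ATF6 and NF-Y are known to raise transcription of ER chaperones. The letters searched were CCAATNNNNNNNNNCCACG on both strands. Hyou1 had no entry in the table. The matches are shown because they are shared by members and rare elsewhere: 0.119% of the 32851 promoters in the table and 0.143% of the 11190 of tested genes held one. The stretches below are written 5′ to 3′ on the strand of the gene, with the first and the last 5 letters of the element in capitals. Where the element lies on the opposite strand these read CGTGG first and ATTGG last.
Hspa5 (chr2:34772020-34772048, +): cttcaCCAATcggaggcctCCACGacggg
Hsp90b1, upstream element (chr10:86705618-86705676, -): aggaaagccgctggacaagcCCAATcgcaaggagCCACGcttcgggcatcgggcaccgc
Hsp90b1, downstream element (chr10:86705513-86705571, -): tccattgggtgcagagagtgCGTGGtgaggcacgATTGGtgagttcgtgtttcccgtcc
Calr (chr8:84847055-84847113, -): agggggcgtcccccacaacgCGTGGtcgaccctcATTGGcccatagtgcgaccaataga
Canx (chr11:50325780-50325838, -): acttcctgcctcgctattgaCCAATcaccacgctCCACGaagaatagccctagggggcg
Pdia6 (chr12:17266471-17266529, +): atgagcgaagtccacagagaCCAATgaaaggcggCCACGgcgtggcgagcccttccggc

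Hsp90b1 was the one member with 2 elements, in opposite orientation. The Hspa5 stretch lies within a first exon of the gene annotation used for counting, while RefSeq places it 70 to 42 bases before the start of transcription. P4hb, Pdia3, Pdia4 and Sdf2l1 did not hold these letters in the window. All 9 promoters held at least 1 CCAAT box, against 37.4% of all promoters and 42.1% of those of tested genes. The right part of the element, CCACG, was in 8, against 32.8% of all and 50.6% of tested genes' promoters, and in 65 of the 93 promoters of other ER folding genes. Overlaps with the whole element are included in these counts. A second element of the response, ERSE-II (ATTGGNCCACG, 0.0365% of all promoters), and the unfolded protein response element (TGACGTGG, 0.676%) were found in 0 of the 9 windows. Outside the members, 11 of the genes tested had an ERSE in their promoter, among them Creld2, Dnajc3, Syvn1 and Derl3 of the ER lists described below. A match is a description of letters and not of binding.

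**Figure D1:**
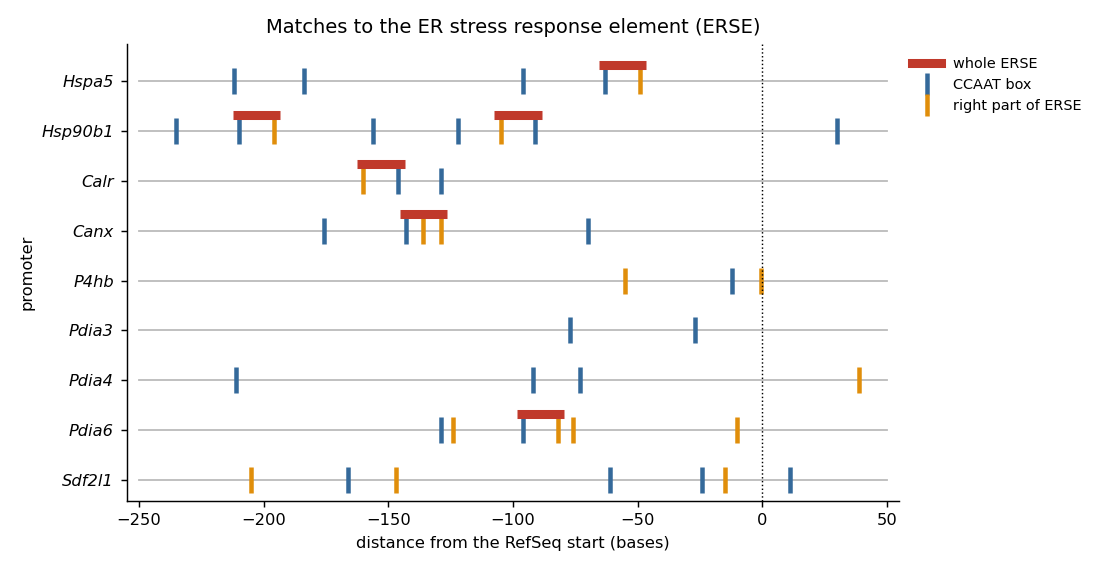
Positions of CCAAT boxes, of the right part of the element (CCACG) and of whole ERSE matches in the promoters of 9 members, as distance in bases from the RefSeq start (x axis), 1 line per gene. Whole elements (red bars) lie in 5 promoters, 2 of them in that of Hsp90b1.

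The deletion removes both arms of the microRNA, miRNA-26b-5p and miRNA-26b-3p, and sites were searched for the 5p arm alone. It is shown with its seed, bases 2 to 8, in capitals, since microRNAs act on mRNA through sites that match it.
mmu-miR-26b-5p (chr1:74394324-74394344, +): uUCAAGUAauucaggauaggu
In the longest annotated 3′ untranslated region of each gene, a match to the seed of 7 or 8 bases was found in 0 of the 10 members. The same search found one in 2881 of 13464 tested genes (21.4%). Canx, Pdia3, Pdia4 and Hyou1 each held 1 shorter match of 6 bases.

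Levels were compared between genes per length, as RPKM (counts scaled by depth and gene length) from the deposited counts and exon lengths. In the miRNA-26b+/+ libraries P4hb (285.6 ± 16.9 RPKM, SD, n = 3), Calr (278 ± 38.2 RPKM) and Hspa5 (263 ± 17.7 RPKM) were the highest, and P4hb, the highest of the 10, ranked 111 among the genes tested. Neighbours in this order overlapped in their library values here, P4hb with Calr and Calr with Hspa5. Pdia3 (212 ± 11.8 RPKM) and Hsp90b1 (198 ± 9.13 RPKM) followed, both below all values of Hspa5 and overlapping each other. Canx was at 84.6 ± 1.48 RPKM, separate from the genes above and below it. Pdia4 (68.9 ± 1.14 RPKM) and Pdia6 (64.2 ± 6.53 RPKM) overlapped. Hyou1 (28.3 ± 3.11 RPKM) and Sdf2l1 (21.4 ± 4.28 RPKM) were lowest, and the ranges of these neighbours touched closely without overlap, with a lowest value of 25.7 RPKM for Hyou1 and a highest of 25.5 RPKM for Sdf2l1. Even Sdf2l1 was above 85.6% of the genes tested.

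Between the genotypes, the HSP70 and HSP90 chaperones of the ER had lower CPM in miRNA-26b-/- mice, and Hspa5 showed the largest difference of the 10 genes. CPM are scaled by the trimmed mean of M values (TMM), and log2 fold changes are given as miRNA-26b-/- over miRNA-26b+/+ with their standard error (SE). Hspa5 encodes BiP (chromosome 2, 34771970 to 34777547, forward strand, 9 exons, GRCm38). It was at 1058, 1079 and 1197 CPM in M2629, M2630 and M2631 and at 899.7, 567 and 793 CPM in M2626, M2627 and M2628. Every miRNA-26b-/- library was below every miRNA-26b+/+ library, and M2627 was the lowest by far. The means were 1111 ± 74.8 and 753 ± 169.8 CPM (SD, n = 3 each). The log2 fold change was -0.56 (SE 0.157). Without M2627 it was -0.39 (SE 0.152).

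Hyou1 encodes a large HSP110-type chaperone that releases ADP from BiP (chromosome 9, 44379490 to 44392369, forward strand, 17 exons). Its levels were 186, 198 and 229 CPM in the miRNA-26b+/+ libraries and 145, 123 and 171 CPM in the miRNA-26b-/- libraries. The groups did not overlap. The means were 204 ± 22.5 and 146 ± 24.1 CPM, with a log2 fold change of -0.49 (SE 0.162), or -0.37 (SE 0.181) without M2627. Sdf2l1 encodes a small ER-resident protein that works with BiP and its J-domain co-chaperones (chromosome 16, 17130138 to 17132383, reverse strand, 3 exons). It had 24.1, 18.8 and 28.2 CPM in the miRNA-26b+/+ and 17.7, 15.4 and 24.0 CPM in the miRNA-26b-/- libraries, and the groups overlapped. The log2 fold change was -0.33 with an SE of 0.287, the largest of the 10 genes, and it was -0.18 without M2627 and -0.53 without M2628. With 452 to 853 counts per library, Sdf2l1 was also the least deeply counted, at a counting error of 3.42% to 4.70%, whereas that of Hspa5 was at most 0.725%.

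Hsp90b1 encodes GRP94, the HSP90 of the ER (chromosome 10, 86690209 to 86705509, reverse strand, 13 exons). Its values were 757, 805 and 829 CPM in the miRNA-26b+/+ libraries and 610.1, 485 and 692 CPM in the miRNA-26b-/- libraries. No value of one group lay within the range of the other. The means were 797 ± 36.8 and 596 ± 104.1 CPM, a log2 fold change of -0.42 (SE 0.143), and -0.29 (SE 0.152) without M2627. Reads of Hsp90b1 are shared with other genes, since counting ignored strand and gave a read to each gene it covered. Its exons overlap those of 1810014B01Rik on the opposite strand by 415 bases and those of Gm15344 by 84 bases. The counts of these genes were 22.4% and 7.04% of those of Hsp90b1. Gm25745 on the same strand shares 133 bases, at 1.22% of the counts of Hsp90b1, with 74 counts in M2626 and 381 in M2628. Overlaps of Pdia3, Pdia4 and Pdia6 were of 14 to 50 bases, with genes at no more than 3.31% of their counts summed over the 6 libraries. Single libraries differed: Mir704, which overlaps Pdia4, had 418 counts in M2629, where Pdia4 had 4988, and 36 in M2630, where Pdia4 had 4522.

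**Figure D2:**
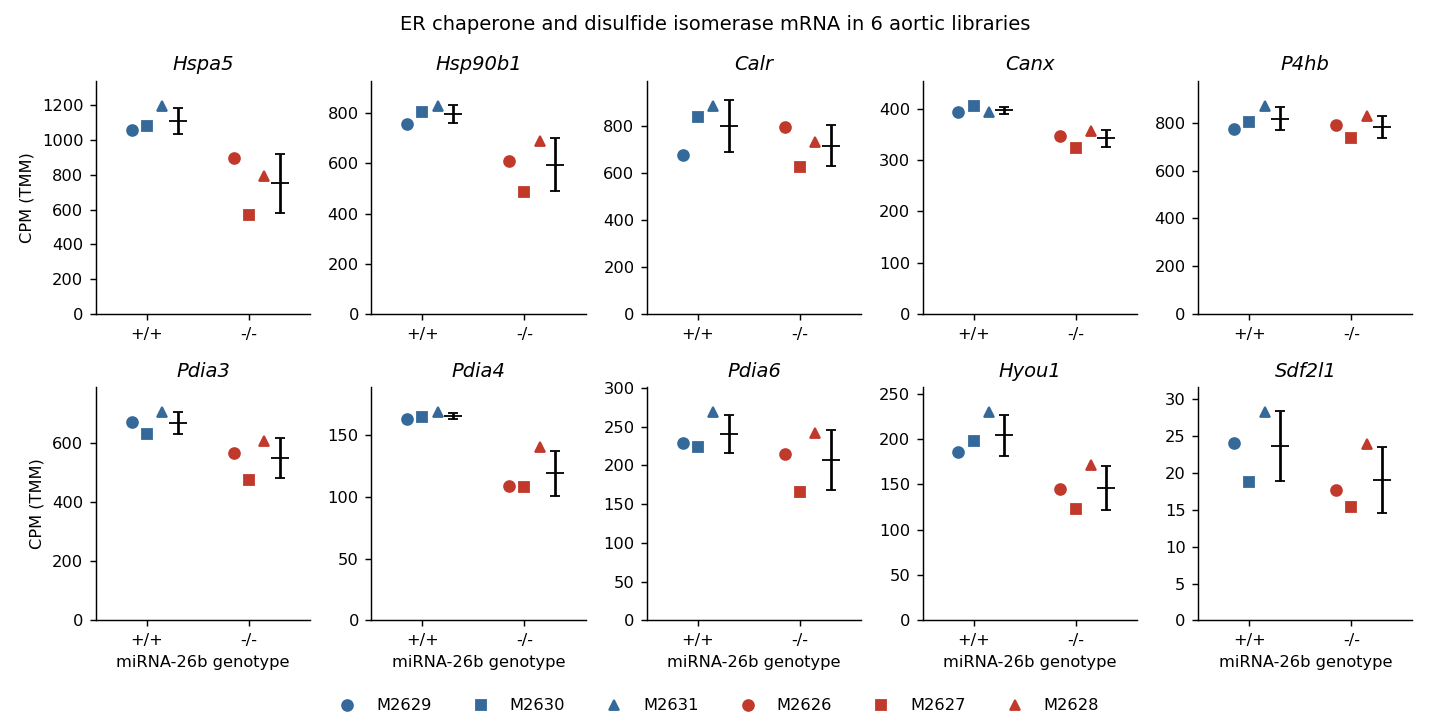
TMM-scaled CPM (y axis, from 0) of the 10 genes in the 3 miRNA-26b+/+ (blue) and 3 miRNA-26b-/- (red) libraries, 1 symbol per library, with the mean and SD of each group in black. The groups do not overlap for Hspa5, Hsp90b1, Canx, Pdia3, Pdia4 and Hyou1, and M2627 (red squares) is the lowest library in all 10 panels.

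The lectin chaperones differed less. Calr, whose product calreticulin is soluble and also binds calcium (chromosome 8, 84841850 to 84846934, reverse strand, 9 exons), was at 677, 840.5 and 886 CPM in the miRNA-26b+/+ libraries and at 796, 624 and 732 CPM in the miRNA-26b-/- libraries. These ranges overlapped widely, with M2629 below M2626 and M2628, and the log2 fold change was -0.16 (SE 0.143), or -0.07 (SE 0.162) without M2627. Canx encodes calnexin, its membrane-bound counterpart (chromosome 11, 50293961 to 50325673, reverse strand, 15 exons). Canx was at 393, 405 and 393 CPM in the miRNA-26b+/+ and at 346, 324 and 356 CPM in the miRNA-26b-/- libraries, without overlap. It varied least among the 10 genes within the groups, and its log2 fold change was -0.22 (SE 0.126), or -0.18 (SE 0.155) without M2627. Per length, Calr exceeded Canx 3.29 ± 0.444 times in miRNA-26b+/+ and 3.42 ± 0.308 times in miRNA-26b-/- libraries, with overlapping values.

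Among the 4 disulfide isomerases, P4hb and Pdia4 were at the extremes. P4hb encodes PDI itself, which is also the beta subunit of prolyl 4-hydroxylase, the enzyme that hydroxylates collagen (chromosome 11, 120560298 to 120573253, reverse strand, 11 exons). It was at 776, 804 and 871 CPM in the miRNA-26b+/+ libraries and at 792, 735 and 827 CPM in the miRNA-26b-/- libraries. The groups overlapped, and the log2 fold change was -0.06 (SE 0.122), the smallest of the 10 genes, and -0.01 (SE 0.149) without M2627. Pdia4, which encodes ERp72 (chromosome 6, 47796141 to 47813430, reverse strand, 10 exons), was at 163, 165 and 168 CPM in the miRNA-26b+/+ libraries and at 109, 108 and 139.96 CPM in the miRNA-26b-/- libraries. The miRNA-26b+/+ values lay close together and above all others. The log2 fold change was -0.48 (SE 0.156), and leaving out M2627 changed it little, to -0.41 (SE 0.184), since M2626 was as low.

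Pdia3 encodes ERp57, the isomerase that works with calnexin and calreticulin (chromosome 2, 121413775 to 121438687, forward strand, 13 exons). It was at 669, 627 and 702 CPM in the miRNA-26b+/+ and at 563, 474 and 604 CPM in the miRNA-26b-/- libraries, without overlap. The log2 fold change was -0.28 (SE 0.133), and -0.19 (SE 0.152) without M2627. Pdia6, whose product P5 associates with BiP (chromosome 12, 17266545 to 17284770, forward strand, 13 exons), was at 229, 223 and 268 CPM in the miRNA-26b+/+ and at 214, 166 and 242 CPM in the miRNA-26b-/- libraries. M2628 was above M2629 and M2630. Its log2 fold change moved from -0.22 (SE 0.162) to -0.07 (SE 0.171) without M2627.

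All 10 log2 fold changes were below 0, with a median of -0.31 against 0.01 over all genes tested. At an unadjusted p-value under 0.05 in edgeR's quasi-likelihood test, 5 members (Hspa5, Hsp90b1, Pdia3, Pdia4 and Hyou1) were lower in miRNA-26b-/- mice, as were 3.07% of all genes tested. None was higher, against 3.4% of all genes. After Benjamini-Hochberg adjustment 0 of the 10 passed with edgeR, DESeq2 or limma voom, each of which gave 5 members at an unadjusted p-value under 0.05. Over all genes tested 0.00624% passed with edgeR, that is 1 gene, against 57 with DESeq2 and 3 with limma voom. For 6 members, the 5 above without exception and Canx, the CPM of the groups did not overlap and were lower in miRNA-26b-/- mice. Over all genes tested, 5.88% were separated in this direction and 5.65% in the other. As the list was drawn up with this comparison known, nothing is read from these counts.

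M2627 was the lowest of the 6 libraries for all 10 members. M2631 was the highest for 9 and M2630 for Canx. Averaged over the 10 genes, log2 CPM minus the miRNA-26b+/+ mean was -0.28 in M2626, -0.54 in M2627 and -0.15 in M2628, against -0.06, -0.05 and 0.11 in M2629, M2630 and M2631. Without M2627 the median log2 fold change of the members was -0.19, the fold changes were all below 0, and 2 members were lower at an unadjusted p-value under 0.05, Hspa5 and Pdia4. In that setting 473 of 15598 genes (3.03%) were. Without M2628 the median log2 fold change of the members was -0.45. Leaving out M2627 cannot undo the separation of the 6 genes, because it is the lowest library throughout. Nothing is therefore read from their separation without it. Together the 10 genes took 0.500% to 0.546% of all counts in miRNA-26b+/+ mice. Their share was 0.447%, 0.364% and 0.463% in M2626, M2627 and M2628.

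**Figure D3:**
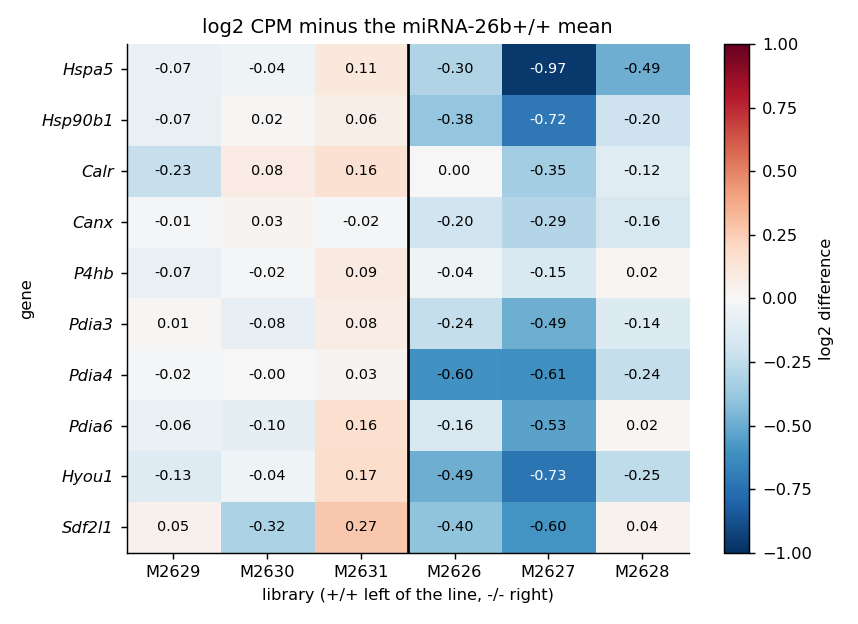
log2 CPM of each member (rows) in each library (columns) minus the mean of the 3 miRNA-26b+/+ libraries for that gene, with the miRNA-26b+/+ libraries left of the black line. Of all values that of Hspa5 in M2627 is the lowest, -0.97, and P4hb lies between -0.15 and 0.09 in every library.

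**Figure D4:**
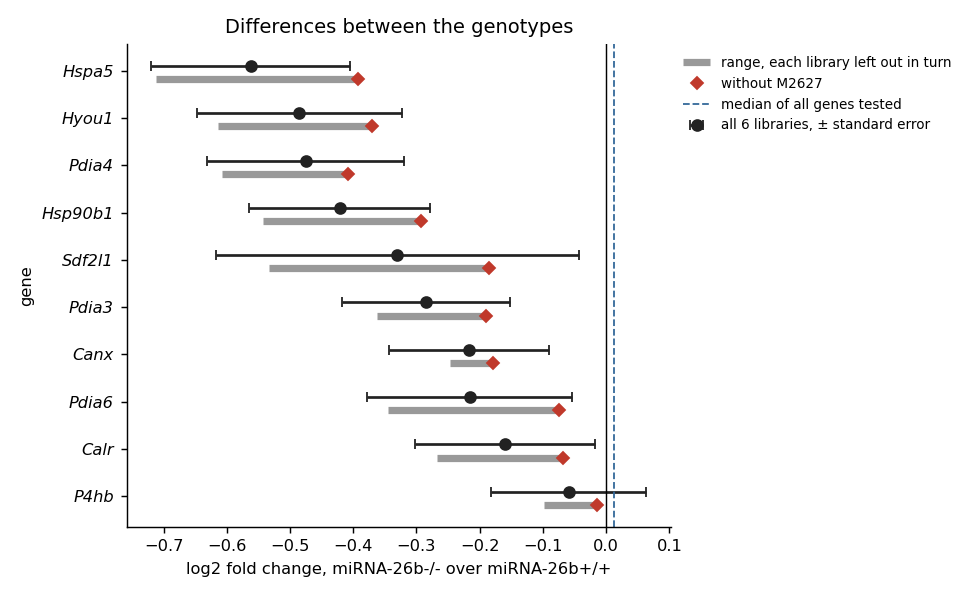
log2 fold change of each member, miRNA-26b-/- over miRNA-26b+/+ (x axis), with its SE (black), the range when each library is left out in turn (grey bar) and the value without M2627 (red diamond). The dashed line is the median of all genes tested, 0.01. Leaving out M2627 gives the value nearest to 0 for all 10 genes, and none reaches 0.

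Markers of other cells also differed between the libraries, some of them in the direction opposite to the members. The 6 Schwann cell markers summed to 438, 439 and 293 CPM in the miRNA-26b-/- libraries and to 210, 225 and 260 CPM in the miRNA-26b+/+ libraries, without overlap. Of these, 5 were higher in miRNA-26b-/- mice at an unadjusted p-value under 0.05, and Ncmap was at 0 in at least 1 library. At the same threshold 4 of 5 tested skeletal muscle markers, 2 of 5 tested neuronal markers and 1 plasma and B cell marker were higher and 1 endothelial marker was lower. M2627, the lowest library for the ER chaperones, was the highest for the adipocyte, neuronal and both muscle lists given above, and also for the Schwann cell list. Fibroblast markers were at 11376 to 20828 CPM in miRNA-26b-/- and 12088 to 14501 CPM in miRNA-26b+/+ libraries, and macrophage markers at 167 to 477 and 265 to 319 CPM, with M2626 and M2627 lowest among all macrophage values. The part of these cells in the differences of the ER genes was not tested. Plasma and B cell markers, from cells rich in ER, were between 0.566 and 6.03 CPM over 6 genes, each at 0 in at least 1 library. In bulk RNA, fewer cells of a type and less RNA per cell cannot be told apart.

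The members varied together over the libraries. All 45 pairwise correlations of log2 CPM over the 6 libraries were above 0, with a median Pearson's r of 0.83, from 0.43 (Calr with Sdf2l1) to 0.98 (Hsp90b1 with Hyou1). These points share their libraries and include the difference between the genotypes, so r is a description only. Ratios within a library restate the unequal differences of the members. The pairs were picked by hand. P4hb had the smallest difference between the genotypes and Hspa5 the largest, so nothing is read from a separation of their ratio. Per length, Hspa5 was at 0.922, 0.907 and 0.93 times the level of P4hb in the miRNA-26b+/+ libraries and at 0.769, 0.522 and 0.649 times in the miRNA-26b-/- libraries, without overlap. Pdia3 to P4hb was 0.744 ± 0.0381 in miRNA-26b+/+ and 0.634 ± 0.0413 in miRNA-26b-/- libraries, also without overlap. Within the BiP system the ratios overlapped: Hsp90b1 to Hspa5 was 0.754 ± 0.0281 and 0.841 ± 0.113, and Hyou1 to Hspa5 was 0.107 ± 0.00472 and 0.116 ± 0.0185.

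The median log2 fold change of members was -0.22 for the 5 with the element and -0.31 for the 4 with a promoter and no element. The 11 other tested genes with an ERSE had a median of 0.01, with 5 below 0. Of these, 2 were lower at an unadjusted p-value under 0.05, Creld2 and Zfp57, and 0 after adjustment (edgeR's quasi-likelihood test). Of the 11190 tested genes with a promoter, 2.68% were lower at that unadjusted threshold. The log2 fold change of Zfp57 was -4.61 with an SE of 1.90.

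Of 9758 other genes with a mean of at least 10 CPM, 143 had a Pearson's r over 0.9 with the mean profile of the members over the 6 libraries, and 58 had an r under -0.9. Of the members themselves, 5 were over 0.9. The 10 most alike were Snrk (r = 0.991), Dock8, Mon2, Ctnna1, Serpinh1 (r = 0.984), Iws1, P2rx1, Rsrp1, Ppm1l and Myo1c (r = 0.977). Each of them was lowest in M2627 and highest in M2631, as was the mean of the members by which they were picked. Serpinh1, which encodes the collagen chaperone HSP47 of the ER, was the one gene of the ER lists among them. It was at 1312, 1347 and 1500.2 CPM in the miRNA-26b+/+ libraries and at 1191, 1020.3 and 1210.4 CPM in the miRNA-26b-/- libraries, without overlap, with a log2 fold change of -0.28 (SE 0.1248, edgeR's quasi-likelihood test, adjusted p = 0.748).

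Other genes of ER protein folding were taken from 8 lists. Of 119 genes, 116 were tested (Pdia2, Clgn and P4ha3 had too few counts). Their median log2 fold change was -0.06, and 70 were below 0. At an unadjusted p-value under 0.05, 9 were lower and 1 was higher, against 3.07% and 3.4% of all genes tested in these directions, and 0 passed after adjustment with edgeR, DESeq2 or limma voom. DESeq2 gave 8 and limma voom 12 of them at an unadjusted p-value under 0.05. Without M2627 the counts were 3 lower (Prkcsh, P4ha1 and Selenos) and 1 higher (Kdelr3), at a median of -0.06. None of the single genes below passed after adjustment in edgeR's quasi-likelihood test, and the adjusted p-values given are from that test.

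Of 9 genes listed as co-chaperones of BiP, most of them with a J-domain (median -0.05), none passed at an unadjusted p-value under 0.05. The most abundant were Dnajc3, which restrains PERK and carries an ERSE (log2 fold change -0.21, SE 0.2004, adjusted p = 0.917), and Dnajc10, a reductase (0.20, SE 0.143, adjusted p = 0.863). Of 19 other disulfide isomerases and oxidases (median -0.07), 1 was lower, the thioredoxin-domain gene Txndc16, with a log2 fold change of -0.49 (SE 0.2097, adjusted p = 0.741). Exons of Txndc16 share 159 bases with Gpr137c on the opposite strand. The abundant Qsox1, a sulfhydryl oxidase, and Txndc5, a disulfide isomerase, had log2 fold changes of -0.03 and -0.19. Txndc5 shares 224 exon bases with Bmp6 and 311 with Gm31834 on the opposite strand.

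In glycoprotein quality control, the system that calnexin and calreticulin serve, 2 of 15 genes were lower (median -0.12). These were Uggt1, the glucosyltransferase that senses folding and returns glycoproteins to the lectins, with a log2 fold change of -0.56 (SE 0.187, adjusted p = 0.736), and Prkcsh, the beta subunit of glucosidase II, with -0.39 (SE 0.171, adjusted p = 0.741). The groups overlapped for Uggt1, where M2628 (138 CPM) was above M2629 (135 CPM). Prkcsh was at 83.9, 89.5 and 90.3 CPM in the miRNA-26b+/+ and at 67.4, 74.3 and 58.4 CPM in the miRNA-26b-/- libraries, without overlap. Mlec and Lman2, lectins of the early secretory pathway, were the most abundant, at -0.16 and 0.00, and Lman2 took either sign with other scalings.

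Of 19 genes of collagen folding and modification, 2 were lower (median -0.10), Serpinh1 as given above and P4ha1, the catalytic partner of P4hb in prolyl 4-hydroxylase. P4ha1 was at 239, 194 and 213 CPM in the miRNA-26b+/+ and at 137, 109 and 179.96 CPM in the miRNA-26b-/- libraries. The groups were apart, with a log2 fold change of -0.60 (SE 0.1803, adjusted p = 0.734). P4ha1 was the one gene of the 8 lists that passed after adjustment in any alternative, with an adjusted p = 0.0340 from edgeR without M2628, in a range of 0.0340 to 0.984 over the alternatives. Fkbp9, an abundant ER prolyl isomerase, was at -0.05.

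The sensors and effectors of the unfolded protein response had a median of 0.01, with 8 of 18 below 0 and 2 lower at an unadjusted p-value under 0.05. These were Manf (log2 fold change -0.52, SE 0.211, adjusted p = 0.736) and Creld2 (-0.57, SE 0.245, adjusted p = 0.741), small secreted ER proteins that the response is known to induce. For both, M2626 was within the range of the miRNA-26b+/+ libraries. Manf shares 146 exon bases with Dcaf1 and 166 with 4930524O07Rik on the opposite strand. On the same strand it shares 14 with Rbm15b, whose counts were 45.7% of those of Manf. The abundant Xbp1, the transcription factor that IRE1 activates by splicing, was at 239.7, 198 and 183 CPM in the miRNA-26b-/- and at 196, 169 and 191 CPM in the miRNA-26b+/+ libraries, with a log2 fold change of 0.16 (SE 0.151, adjusted p = 0.923). Mbtps1, the protease that cleaves ATF6, was at 0.00 and took either sign with other scalings.

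Of 11 genes of ER-associated degradation (median -0.08), 2 were lower, Selenos, a membrane partner of the p97 ATPase, and Sel1l, the adaptor of the ubiquitin ligase complex. Selenos was at 82.5, 63.6 and 78.1 CPM in the miRNA-26b+/+ and at 56.0, 41.6 and 44.9 CPM in the miRNA-26b-/- libraries, apart from each other, with a log2 fold change of -0.66 (SE 0.196, adjusted p = 0.734). For Sel1l it was -0.34 (SE 0.155, adjusted p = 0.763), and the groups overlapped, with M2628 (231 CPM) above M2629 (228 CPM). At an unadjusted p-value under 0.05, none of 13 genes of the translocon and signal peptidase passed (median -0.06). The most abundant of them were Ssr3, at -0.10, and Sec61a1, which encodes the channel and shares 549 exon bases with Gm44170 on the opposite strand, at -0.06.

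Among 12 KDEL receptors and ER calcium proteins (median 0.01), 1 was higher and 0 were lower. Kdelr3, a receptor that returns proteins with a KDEL signal such as BiP to the ER, was at 42.7, 36.7 and 58.1 CPM in the miRNA-26b+/+ and at 79.6, 75.7 and 70.1 CPM in the miRNA-26b-/- libraries. All miRNA-26b-/- values were above, at a log2 fold change of 0.71 (SE 0.202, adjusted p = 0.731). Its exons overlap those of Ddx17 on the opposite strand by 4 bases, and Ddx17 had 535% of its counts. The calcium pump Atp2a2 (-0.19) and the calcium-binding Calu (-0.05) were the most abundant.

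**Figure D5:**
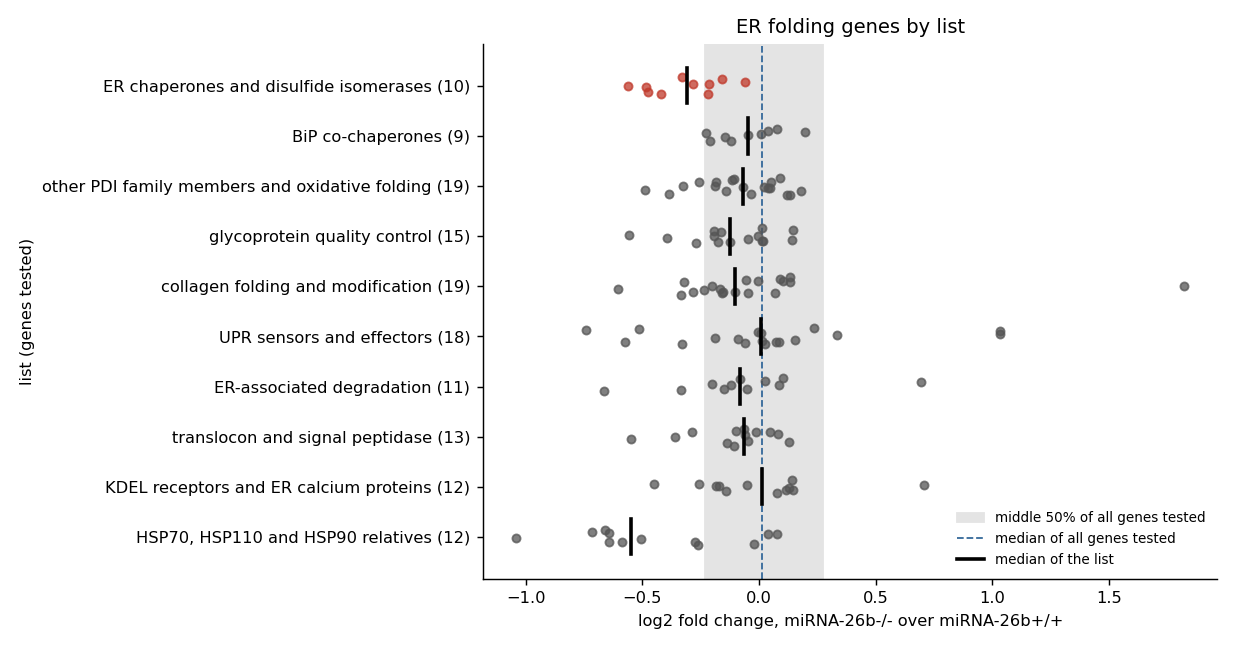
log2 fold change, miRNA-26b-/- over miRNA-26b+/+ (x axis), of each tested gene in the members' list (red), in 8 lists of other ER folding genes and in the HSP70, HSP110 and HSP90 relatives outside this set (grey points, 1 per gene), with list medians in black. The grey band is the middle 50% of all genes tested, from -0.23 to 0.27. The medians of the 8 other ER lists lie between -0.12 and 0.01, and those of the members and of the relatives at -0.31 and -0.55.

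Of 12 relatives of BiP, HYOU1 and GRP94, most of which work in the cytosol or mitochondria, 5 were lower at an unadjusted p-value under 0.05 and 0 after adjustment with edgeR, at a median of -0.55. Whether this list differs from the others was not tested. Hspa8, the constitutive cytosolic HSP70, was at 1138, 1239 and 1143 CPM in the miRNA-26b+/+ libraries and at 749.8, 583 and 893 CPM in the miRNA-26b-/- libraries. The groups did not overlap, and M2627 was again the lowest (log2 fold change -0.66, SE 0.1498, adjusted p = 0.6399). Hsp90ab1, the cytosolic counterpart of Hsp90b1, had a log2 fold change of -0.51 (SE 0.121, adjusted p = 0.6399). Hsph1, a cytosolic HSP110 like HYOU1, had -0.65 (SE 0.156, adjusted p = 0.6399). Hspa4l, of the same family, had 82.5, 85.0 and 76.8 CPM in the miRNA-26b+/+ and 40.1, 41.1 and 37.4 CPM in the miRNA-26b-/- libraries, a log2 fold change of -1.04 (SE 0.1797, adjusted p = 0.110). In Hspa4l M2627 did not stand apart. With DESeq2 all 4 passed after adjustment, Hspa4l with an adjusted p = 0.000210, Hsp90ab1 with 0.00169, Hspa8 with 0.00559 and Hsph1 with 0.0204. With edgeR, Hspa4l (adjusted p = 0.0270) and Hspa8 (adjusted p = 0.0132) passed without M2628. Across all alternatives these p-values reached 0.778 for Hspa4l, 0.983 for Hspa8 and Hsp90ab1 and 0.984 for Hsph1.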

How the data were processed

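RNA of 6 mouse aortas was sequenced and the authors deposited counts per gene, made with STAR and featureCounts 1.6.4 on mm10 (GRCm38) with GENCODE M21 per the file header. Counting was over exons by gene name, without strand (-O: a read over several genes counts for each). Multi-mapping reads were left out by default. A deposited table of normalized values and the authors' own comparison was not used. Genes needed a count sum of 2 or more and above 1 CPM in 2 or more libraries, and were tested by edgeR 4.0.16 (quasi-likelihood, TMM, prior count 0.125, R 4.3.3) across all genes, with Benjamini-Hochberg adjustment. DESeq2 1.42.0, limma 3.58.1 voom, other normalizations and filters, a prior count of 2 and leaving out each library were alternatives. The earlier quasi-likelihood method of edgeR was added after seeing the data. The procedure was tested on simulated data. The members and the gene lists were chosen with earlier results of these data known. Named in each list were up to 4 genes with the smallest unadjusted p-value under 0.05 and the 2 with the highest mean CPM, and besides the 10 genes most correlated with the members. Of the genes this rule names, 1 is not reported here. Zfp57, Syvn1 and Derl3 were named after their values were seen. P-values set the difference between the genotypes against a spread between mice that is estimated in part from all genes. An exact permutation test of 1 gene alone, with 3 mice a group, cannot give less than 0.1. Total counts were 25706728 to 33345037, and counting errors cover counting only.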

Additional observations from a re-analysis of the deposited data

How the results depend on the processing

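Members kept log2 fold changes below 0 in every alternative run, with medians from -0.45 to -0.19. No paired analysis was possible because the labels give no replicate numbers shared by the groups. Leaving out each library in turn gave 2 to 6 members, 4 to 14 other ER folding genes and 686 to 1692 of all genes at an unadjusted p-value under 0.05. The lowest counts of members (2) and of other ER folding genes (4) came without M2627, and the highest without M2628. After adjustment, 82 of 15654 genes passed in edgeR's quasi-likelihood test without M2628, against 1 with all libraries. Of the members, 0 passed without M2628. Without M2630 or M2631 the count of other ER folding genes was 6. Genes near 0 changed sign. Lman2 was at 0.013 with scaling by library size, 0.0020 with DESeq2 and 0.0046 without the CPM filter, and between -0.082 and 0.090 without single libraries. Mbtps1 was at 0.013, 0.0027 and 0.0038 with the same alternatives, and between -0.069 and 0.064 without single libraries. Without single libraries, Sec61a1 ranged from -0.12 to 0.025 and Ssr3 from -0.19 to 0.022. Each count and the median was compared with its main value in the alternatives. Of these comparisons, 47 stayed within 1.5 times the count or 1 SD. Another 6 moved, each from a fit that left out a library. Depth limits Sdf2l1 most.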
